A study of Mus musculus with 6 samples.

Results

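Fc receptors bind the constant part of antibodies. The 6 genes described here were Fcgr1, Fcgr3 and Fcgr4, which encode activating receptors for IgG, Fcgr2b, which encodes the inhibitory receptor for IgG, Fcer1g, which encodes the FcRγ signalling chain, and Fcgrt, which encodes the heavy chain of the neonatal Fc receptor (FcRn). They were chosen by gene symbol from the 17469 genes in the deposited table. Their transcripts were compared in tdTomato+ cells, named OB progenitors by the study, sorted from cultured bone marrow stromal cells (BMSCs) of 6-month-old mice, with 3 libraries of untreated control mice (Ocn-Cre;Ai9) and 3 of TgAPPsweOCN;Ai9 mice (TgAPPswe;Ocn-Cre;Ai9 in the labels), whose cells are called APPswe+ OB progenitors. Cells of both genotypes carried Cre under the osteocalcin promoter and the Ai9 allele, which expresses tdTomato after Cre has acted. Only APPswe+ OB progenitors also carried human APPswe behind a stop cassette that the same Cre removes, so the comparison asked what differed in cells in which that transgene had been switched on. The strain was on a C57BL/6 background, and the same Cre line is known to act weakly in some neurons. The study's legend for the figure with these data gives 3 mice for its values shown as mean ± SD. It does not state how many mice lie behind each library, so the p-values measure the spread between these libraries, which may be technical.

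The activating receptors mostly have no signalling motif of their own and reach the cell surface with FcRγ, whose ITAM motif is phosphorylated by Src family kinases and then recruits the kinase Syk. FcγRIIB, the product of Fcgr2b, carries an ITIM motif in its own tail, which recruits the phosphatase SHIP1 and dampens the ITAM signal, so the level of activating against inhibitory receptors is commonly read as the threshold for a response to immune complexes. FcRn pairs with β2-microglobulin and returns IgG and albumin from endosomes to the cell surface or the blood. The IgG receptors and FcRγ are typical of macrophages, microglia, monocytes and other myeloid cells, and B cells carry the inhibitory receptor.

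The sorted cells were checked against marker genes. No gene of the 8 marker lists that is in the table stood at 0 in all libraries, but the lists differed widely in level. The summed FPKM (mapped fragments scaled by transcript length and by the library's total, a level that can be compared between genes) over the myeloid list (15 genes) ranged from 22989 to 24177 in the control and from 15992 to 19886 in the TgAPPsweOCN;Ai9 libraries. For 15 stromal and osteoblast marker genes it was 152 to 177 and 116 to 194, and the osteoblast markers Bglap and Dmp1 were too low to be tested. These levels go against the name OB progenitors, which is kept below only as the study's name for the samples. In the myeloid list 3 genes (Adgre1, Aif1 and Itgam) were called up and 4 (Mrc1, Csf1r, Mertk and Cd68) were called down. Of all genes tested 8.9% were called up and 9.2% down. No stromal gene was called. Marker lists of B cells, T and NK cells, mast cells and basophils, and dendritic cells each summed to less than an FPKM of 5 in all libraries. The neutrophil list summed to 45.8 to 74.5 in control and 55.6 to 66.8 in the TgAPPsweOCN;Ai9 libraries, and the endothelial list to 3.87 to 6.38 and 5.17 to 6.12. Totals were 19340810 to 19801060 estimated counts in the control and 21677461 to 22037840 in the TgAPPsweOCN;Ai9 libraries. App, which has a single entry that does not separate human from mouse transcripts, was higher in APPswe+ OB progenitors, with a log2 fold change of 0.45 (standard error 0.0509, edgeR adjusted p = 7.87e-05), or 0.24 with library size scaling only and in both limma fits on log2 FPKM (pseudocount 1 or 0.1).

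In the mouse genome (build GRCm38.p6, RefSeq annotation) 4 of the 6 genes lie close together on chromosome 1. Fcgr2b occupies chr1:170960558-170976071 on the minus strand, Fcgr4 chr1:171018926-171029761 on the plus strand and Fcgr3 chr1:171051169-171065915 on the minus strand. Gaps of 42854 and 21407 bases separate these 3 genes. Fcer1g occupies chr1:171229572-171234349 on the minus strand, 163656 bases beyond Fcgr3. Fcgr1 lies on another chromosome, at chr3:96282909-96293969 on the minus strand, and Fcgrt at chr7:45092993-45103822 on the minus strand.

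The RefSeq sequences upstream of the 3 activating receptor genes are shown because Fcgr1 and Fcgr4 rose while Fcgr3 fell in the comparison below. They run 5′ to 3′ on the strand of the gene at chr3:96293970-96294219 (minus), chr1:171018676-171018919 (plus) and chr1:171059404-171059626 (minus), and were shortened where an annotated exon of the same gene overlapped. The Fcgr3 window belongs to a transcript start that lies inside the gene's span. Capitals mark a GAS match (TTCCCAGAA) and a PU.1 core (TTCCTC) in Fcgr1, an ISRE match (GAAAAGGAAA) and a PU.1 core in Fcgr4, and a PU.1 core in Fcgr3.
Fcgr1: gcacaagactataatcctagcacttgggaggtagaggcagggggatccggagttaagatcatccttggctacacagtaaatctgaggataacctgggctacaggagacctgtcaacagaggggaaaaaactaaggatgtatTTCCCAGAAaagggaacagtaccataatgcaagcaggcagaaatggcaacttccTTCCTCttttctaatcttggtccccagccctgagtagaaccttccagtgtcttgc
Fcgr4: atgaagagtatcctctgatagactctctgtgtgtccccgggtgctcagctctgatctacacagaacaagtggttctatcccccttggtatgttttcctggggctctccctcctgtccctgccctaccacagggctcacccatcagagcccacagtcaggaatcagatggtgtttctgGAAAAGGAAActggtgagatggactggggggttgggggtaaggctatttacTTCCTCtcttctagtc
Fcgr3: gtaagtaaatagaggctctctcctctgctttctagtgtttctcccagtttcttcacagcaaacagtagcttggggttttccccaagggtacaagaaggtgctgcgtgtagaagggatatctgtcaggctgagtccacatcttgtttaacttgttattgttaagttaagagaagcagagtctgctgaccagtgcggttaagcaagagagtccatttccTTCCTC

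GAS and ISRE are elements of the interferon response, and PU.1 (encoded by Spi1) is the ETS-family factor of myeloid cells. On both strands of the 250 bases upstream of 32851 RefSeq starts, the GAS letters TTCNNNGAA occurred in 7.02% of windows and the ISRE letters (GAAA, any 2 bases, then GAAA again) in 2.98%. Of the 6 genes, 1 held each of them, Fcgr1 the GAS at 109 to 101 bases before its start and Fcgr4 the ISRE at 73 to 64 bases. The PU.1 core, searched as GAGGAA on both strands and found in 23.3% of all windows, matched in Fcgr1 (55 to 50 bases), Fcgr4 (22 to 17) and Fcgr3 (6 to 1). The ETS letters GGAAGT (19.7% of windows) matched in Fcgr1, Fcgr2b and Fcgr4, directly beside the PU.1 core in Fcgr1 and overlapping it in Fcgr4. The κB letters (GGG, any 5 bases, then CC, in 45.8%) matched in Fcgr2b, Fcgr3, Fcgr4 and Fcer1g, with overlapping matches in the first 3, and the C/EBP letters TTGCNNAA (9.56%) in Fcgr3 and Fcgrt. No window of the 6 genes held the E-box CACGTG (6.02%) or the AP-1 letters TGANTCA (6.75%). A match describes letters only, and binding was not measured. The κB and C/EBP matches are not marked in the sequences shown. Any link between these letters and the directions of the genes was not tested.

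The Fc receptor genes split by direction within the activating class. Fcgr4 and Fcgr1, 2 of the 3 activating receptor genes, and the chain gene Fcer1g were up-regulated in APPswe+ OB progenitors, and the third activating gene, Fcgr3, was down-regulated. Calls required a Benjamini-Hochberg adjusted p of at most 0.05 from edgeR's quasi-likelihood test together with a level that differed by 1 or more on the log2 scale. All 6 genes passed the filter on low counts, 3 were called up and 1 was called down, against 8.9% and 9.2% (together 18.1%) of the 12701 genes tested. Fcgr2b and Fcgrt passed the adjusted p but not the fold change threshold, both with lower values in APPswe+ OB progenitors. By the adjusted p alone 3 genes were higher and 3 lower, and 32.5% and 31.5% of all genes tested were. For none of the 6 did the genotypes overlap, 3 lying above and 3 below in all TgAPPsweOCN;Ai9 libraries. On log2 CPM after TMM scaling 34.8% of all genes tested lay above and 34.9% below in this way, and in FPKM, which has no such scaling, 24.0% lay above and 48.3% below. In bulk RNA, more or fewer cells of a type and more or less RNA per cell cannot be told apart, and the part of the myeloid marker levels given above in these differences was not tested.

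**Figure D1:**
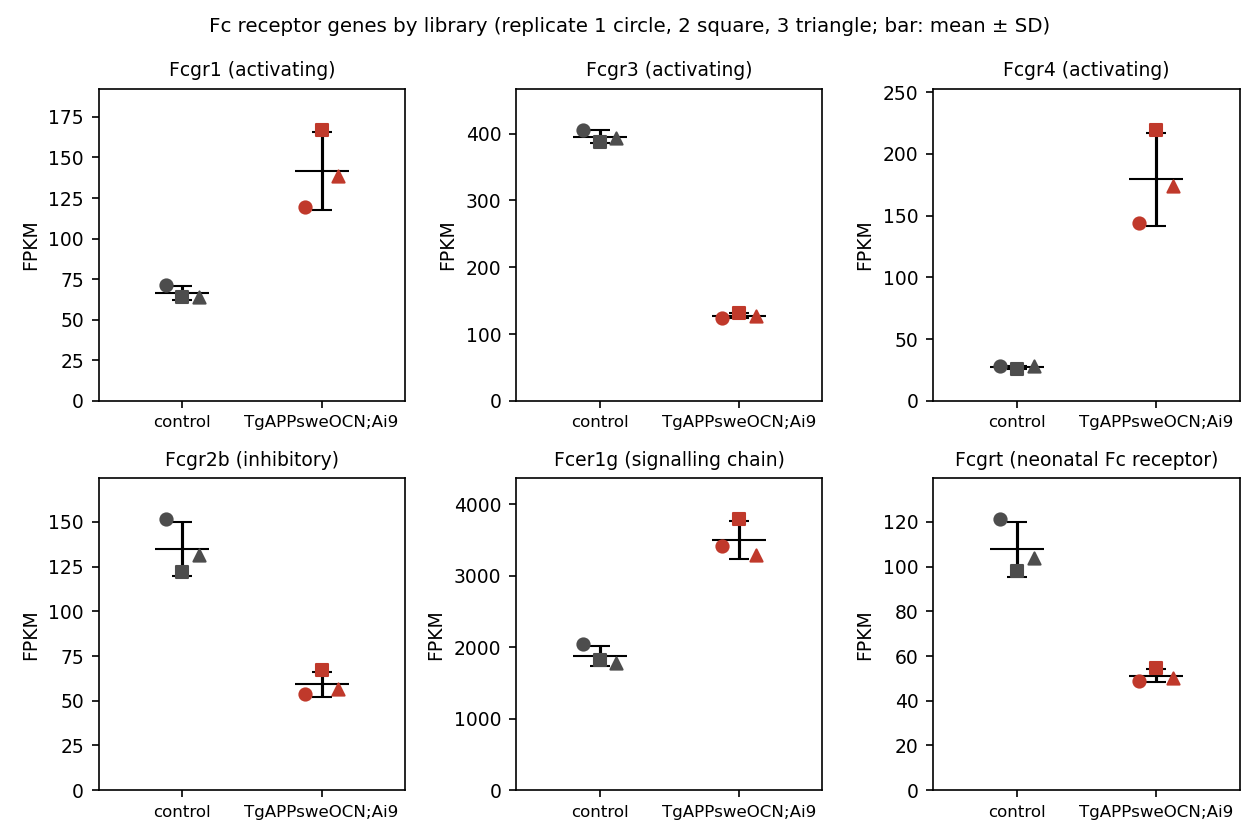
FPKM (y axis) of the 6 Fc receptor genes in each library of control (grey) and TgAPPsweOCN;Ai9 (red) OB progenitors, with circles, squares and triangles for replicates 1, 2 and 3 and bars for mean ± SD (n = 3). Fcgr1, Fcgr4 and Fcer1g lie higher and Fcgr3, Fcgr2b and Fcgrt lower in all 3 TgAPPsweOCN;Ai9 libraries, and replicate 2 is the highest TgAPPsweOCN;Ai9 library in every panel.

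Among the activating genes, Fcgr4 differed most. Fcgr4 encodes FcγRIV, a mouse receptor of intermediate affinity that binds IgG2a and IgG2b. Its FPKM was 27.9, 25.4 and 28.0 in the control libraries, against 144, 220 and 174 in the TgAPPsweOCN;Ai9 libraries. The lowest TgAPPsweOCN;Ai9 library thus lay far above the highest control library, although the TgAPPsweOCN;Ai9 libraries also varied more. The mean was 27.1 ± 1.46 (SD, n = 3) against 179 ± 37.9, on 595 to 646 and 3759 to 5676 estimated counts. The log2 fold change was 2.94 (standard error 0.137, edgeR adjusted p = 5.67e-07), 7.66 times the control level after TMM scaling (6.61 times in mean FPKM, which carries no such scaling), and 2.2% of tested genes had a larger change in either direction.

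Fcgr1 encodes FcγRI (CD64), the high-affinity receptor for IgG. Its FPKM was 71.6, 64.1 and 63.8 in the control libraries, against 120, 167 and 139 in the TgAPPsweOCN;Ai9 libraries, again without overlap. The mean was 66.5 ± 4.42 against 142 ± 23.9 (SD, n = 3), with a log2 fold change of 1.30 (standard error 0.108, edgeR adjusted p = 1.37e-05).

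Fcgr3 encodes FcγRIII, a low-affinity receptor that like the others depends on FcRγ. In contrast to Fcgr1 and Fcgr4, its FPKM was 406, 387 and 393 in the control libraries, against 125, 132 and 126 in the TgAPPsweOCN;Ai9 libraries. The libraries of a genotype lay close together, with means of 395 ± 9.53 and 128 ± 3.97 (SD, n = 3) on 9844 to 10297 and 3535 to 3743 estimated counts. The log2 fold change was -1.42 (standard error 0.0523, edgeR adjusted p = 1.85e-07), a level 2.67 times higher in control than in APPswe+ OB progenitors (3.09 times in mean FPKM).

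Fcgr2b, the inhibitory gene, was lower in the same direction as Fcgr3. Its FPKM was 152, 122 and 132 in the control libraries, against 53.9, 67.2 and 56.7 in the TgAPPsweOCN;Ai9 libraries, with means of 135 ± 15.2 and 59.3 ± 7.03 (SD, n = 3). The genotypes did not overlap, and control replicate 1 stood highest. The log2 fold change of -0.96 (standard error 0.101, edgeR adjusted p = 5.04e-05) stopped just short of the threshold of 1. Fcgr2b crossed that threshold without control replicate 2 (-1.04) and without TgAPPsweOCN;Ai9 replicate 2 (-1.05), so its call as down-regulated turned on single libraries while its direction did not.

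Fcer1g was the most abundant of the 6 genes in all libraries. Its FPKM was 2038, 1826 and 1772 in the control libraries, against 3410, 3794 and 3288 in the TgAPPsweOCN;Ai9 libraries, without overlap. From a mean of 1879 ± 140 to 3497 ± 264 (SD, n = 3), the log2 fold change was 1.11 (standard error 0.0779, edgeR adjusted p = 5.19e-06). Scaled by library size only, which moves the median of all genes tested from -0.02 to -0.23, the log2 fold change was 0.90 and under the threshold. In that fit 2 of the 6 genes were called up and 3 down, with Fcgr2b (-1.18) and Fcgrt (-1.07) then past it.

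Fcgrt was lower in APPswe+ OB progenitors. Its FPKM was 121, 97.9 and 104 in the control libraries, against 48.9, 54.5 and 50.3 in the TgAPPsweOCN;Ai9 libraries. The mean was 107.7 ± 12.2 against 51.2 ± 2.90 (SD, n = 3), and the log2 fold change of -0.86 (standard error 0.0855, edgeR adjusted p = 3.89e-05) did not reach the fold change threshold.

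**Figure D2:**
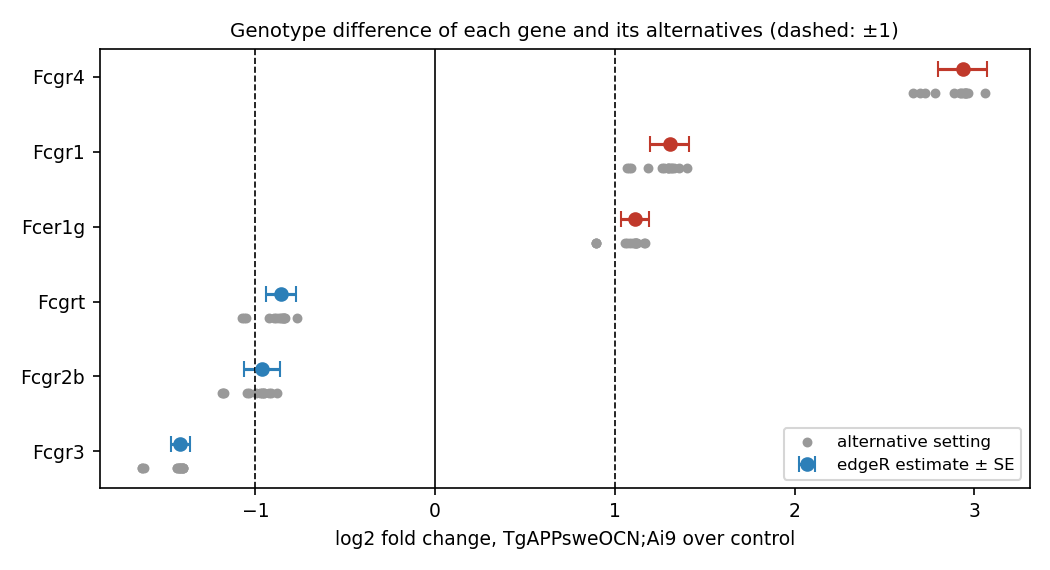
Log2 fold change of TgAPPsweOCN;Ai9 over control (x axis) for each Fc receptor gene, as the edgeR estimate ± standard error (red for higher, blue for lower) with the values under the other settings as grey points below. Fcgr4 (2.94) lies far beyond the dashed lines at 1 and -1, while Fcer1g (1.11), Fcgr2b (-0.96) and Fcgrt (-0.86) lie near them, and all points of a gene keep to the same side of 0.

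Because FPKM accounts for transcript length, the levels of the 6 genes could be ordered within each library. In all 3 control libraries the order was Fcer1g, Fcgr3, Fcgr2b, Fcgrt, Fcgr1 and Fcgr4, with no overlap between neighbours in their FPKM ranges, although Fcgr2b and Fcgrt nearly met (lowest 121.9 against highest 121.3). In TgAPPsweOCN;Ai9 libraries Fcgr4 moved from the last place to the one behind Fcer1g, and Fcgr2b and Fcgrt became the lowest. There the FPKM ranges of Fcgr4 and Fcgr1, of Fcgr1 and Fcgr3, and of Fcgr2b and Fcgrt overlapped, and the place behind Fcgr4 went to Fcgr3 in replicate 1 and to Fcgr1 in replicates 2 and 3.

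The makeup of the 4 IgG receptor genes was then compared as shares of their summed FPKM. Fcgr3 made up 61.8% to 64.7% of the sum in the control libraries and 22.6% to 28.2% in the TgAPPsweOCN;Ai9 libraries. Fcgr4 went from 4.25% to 4.54% in control to 32.6% to 37.5% in TgAPPsweOCN;Ai9 libraries. Fcgr1 held 10.4% to 10.9% and 27.0% to 28.5%, and Fcgr2b 20.4% to 23.1% and 11.4% to 12.2%. No receptor's share overlapped between the genotypes. The summed FPKM of the 3 activating genes did overlap, at 477 to 505 in control and 389 to 519 in TgAPPsweOCN;Ai9 libraries (489 ± 14.7 and 449 ± 65.7, SD, n = 3), so the lower Fcgr3 and the higher Fcgr1 and Fcgr4 nearly offset each other in the sum.

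The activating genes were next set against Fcgr2b within each library, a ratio that does not depend on how libraries are scaled to each other. The summed FPKM of Fcgr1, Fcgr3 and Fcgr4 was 3.33, 3.91 and 3.69 times that of Fcgr2b in the control libraries and 7.21, 7.72 and 7.74 times in the TgAPPsweOCN;Ai9 libraries. All 3 TgAPPsweOCN;Ai9 libraries were above all control libraries, with a difference of 1.06 in mean log2 ratio, or 2.08 times (exact two-sided permutation p = 0.1, which is the lowest value possible with 3 against 3, and 0.1 after Benjamini-Hochberg adjustment over 5 ratios). This test cannot reach 0.05 with 3 libraries against 3. The summed activating FPKM was not higher, with a mean of 489 in control and 449 in TgAPPsweOCN;Ai9 libraries. The higher ratio thus went with the lower Fcgr2b. Taken with the geometric mean of the 3 activating genes, which weights them equally, the difference was 1.91 on the log2 scale.

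The ratio of each activating gene to Fcgr2b was taken on estimated counts. Relative to Fcgr2b, Fcgr4 differed by 3.88 in log2 ratio (14.8 times) and Fcgr1 by 2.26 (4.79 times), both higher in all 3 TgAPPsweOCN;Ai9 libraries. Fcgr3 to Fcgr2b was lower, with a difference of -0.45, and log2 ratios of 1.37, 1.62 and 1.53 in control and 1.14, 0.91 and 1.09 in the TgAPPsweOCN;Ai9 libraries. The ratio of Fcer1g to Fcgr2b was higher by 2.07 (4.21 times). Each of these 4 ratios separated the genotypes without overlap (exact permutation test, two-sided p = 0.1, adjusted p = 0.1).

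Further ratios were chosen after the values had been seen. The FPKM of Fcer1g was 3.65 to 4.03 times the summed activating genes in the control and 7.31 to 8.77 times in the TgAPPsweOCN;Ai9 libraries. Fcgr4 to Fcgr3, the neighbouring activating genes, differed by 4.34 in log2 ratio of counts, or 20.2 times. Fcgrt to B2m, which encodes the FcRn light chain β2-microglobulin, was lower, with a difference of -2.04 in log2 ratio of counts, 4.11 times lower in APPswe+ OB progenitors. These 3 gave an exact permutation two-sided p = 0.1 each, the lowest possible with 3 against 3. Because the ratios were chosen from values already seen, this p adds no support.

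**Figure D3:**
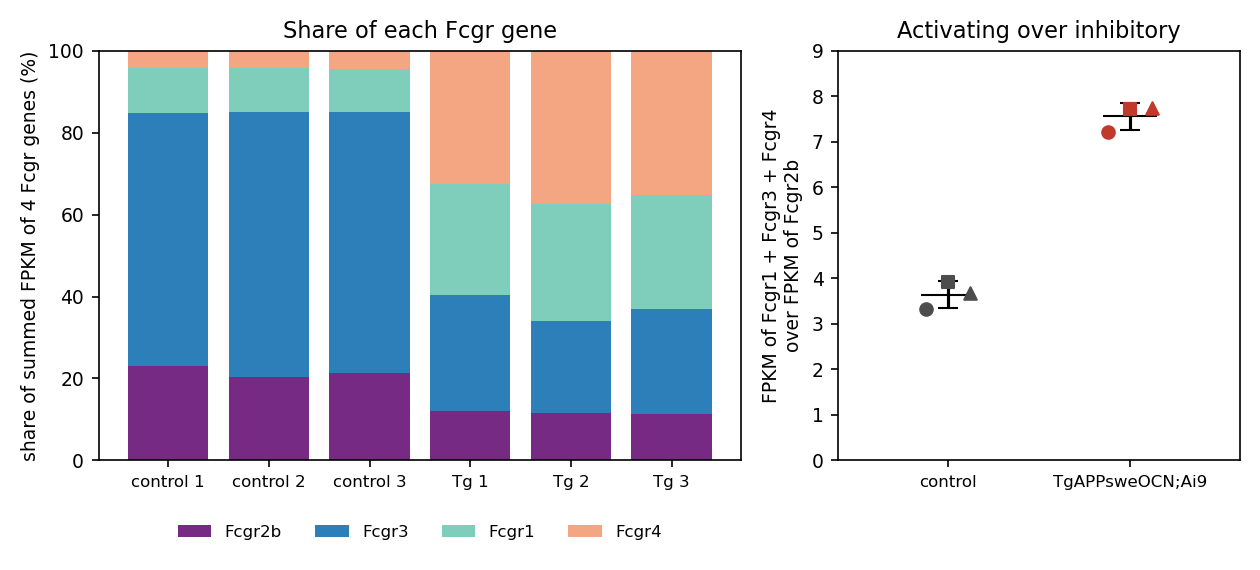
Left, share (%) of each of Fcgr1, Fcgr2b, Fcgr3 and Fcgr4 in their summed FPKM per library, with Tg for TgAPPsweOCN;Ai9. Right, summed FPKM of the 3 activating genes over that of Fcgr2b per library, with bars for mean ± SD (n = 3). Fcgr3 fills 61.8% to 64.7% of the control bars and 22.6% to 28.2% of the TgAPPsweOCN;Ai9 bars, and the ratio is 3.33 to 3.91 in control and 7.21 to 7.74 in TgAPPsweOCN;Ai9 libraries.

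Fcgr2b and Fcgr3 share sequence, which bears on how reads were divided between them. Over 521 coding bases aligned without gaps, 499 were identical (95.8%). Their longest exact run of coding sequence, read from the GENCODE vM21 transcripts, was 129 bases in 2 exons of each gene, within chr1:170966674-170968081 for Fcgr2b and chr1:171054167-171057792 for Fcgr3, both on the minus strand. It is shown because a read pair wholly inside it could come from either gene, and every base is shared, so none is in capitals.
Fcgr2b and Fcgr3: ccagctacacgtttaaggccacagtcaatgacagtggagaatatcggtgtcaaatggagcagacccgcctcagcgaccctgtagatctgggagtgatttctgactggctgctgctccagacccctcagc

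Of all stretches of 100 bases, 1.28% of those in the Fcgr2b transcript and 3.53% of those in the Fcgr3 transcript occurred in the other, and none was shared between any other pair of the 6 genes. The estimated counts of Fcgr2b and Fcgr3 held decimals that summed to whole numbers in each library, for example 1608.96 and 3553.04 in TgAPPsweOCN;Ai9 replicate 1, so reads had been divided between these 2 genes. Summed, they gave 13165 to 14287 counts in the control and 5162 to 5731 in the TgAPPsweOCN;Ai9 libraries. Fitted as 1 gene, the sum had a log2 fold change of -1.28 (standard error 0.0625, edgeR adjusted p = 7.13e-07). The lower level of the pair therefore does not depend on the division. The separate values of Fcgr2b and Fcgr3 do rest on it. So do the shares and ratios above that use either gene, the activating to inhibitory ratio among them. How far they would move under another division was not tested.

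The chromosome 1 cluster gave a view of neighbouring genes. The 40 RefSeq entries between Fcgr2b and Fcer1g included 9 genes of the table, Fcgr4 and Fcgr3 among them. Fcgr2b (-0.96), Fcgr4 (2.94) and Fcgr3 (-1.42) lie side by side and Fcgr4 differed in sign from the genes on either side of it. Among tested neighbours that are not Fc receptors, Sdhc (0.37), Tomm40l (0.14), Cfap126 (-0.15), Gm39701 (-0.37) and B4galt3 (-0.42) had log2 fold changes under the threshold, of which Tomm40l changed sign with the scaling and Cfap126 without single libraries. Pcp4l1 between Fcgr3 and Fcer1g was called down (-1.60, standard error 0.101, edgeR adjusted p = 2.96e-06) and Adamts4, which encodes an aggrecanase, on the far side of Fcer1g was called up. Adamts4 was low, with a mean FPKM of 0.25 in control and 4.81 in the TgAPPsweOCN;Ai9 libraries (log2 fold change 4.45, standard error 0.508, edgeR adjusted p = 8.78e-05). Fcrla, Fcrlb, Nr1i3 and Apoa2 had too few counts to be tested, each with an FPKM of at most 0.82 in any library.

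**Figure D4:**
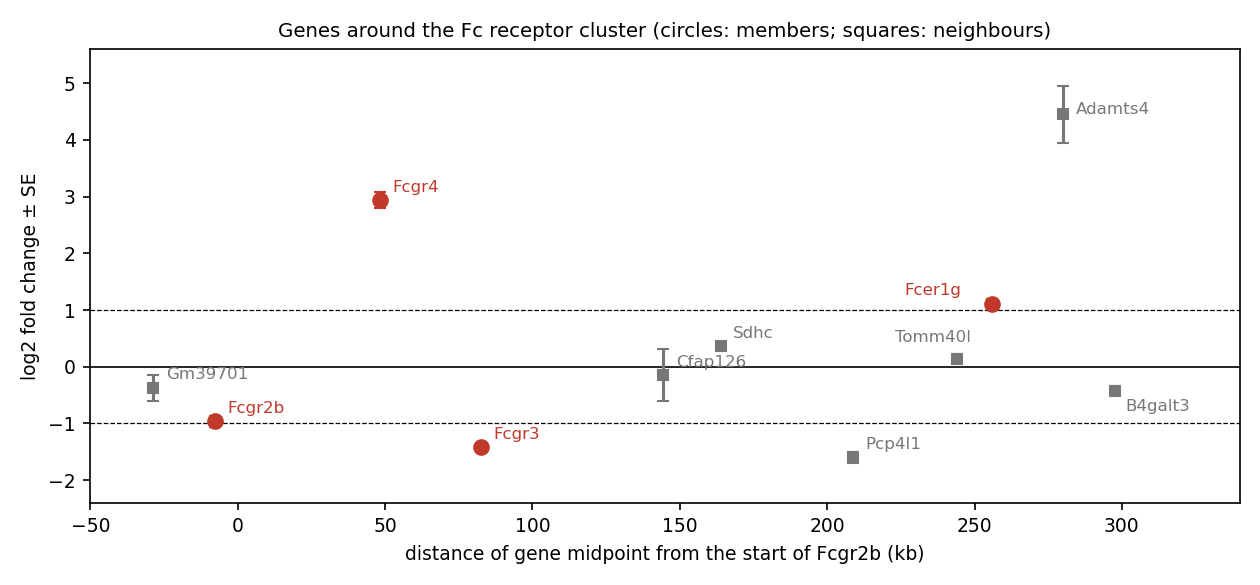
Log2 fold change ± standard error (y axis) of tested genes around the chromosome 1 cluster, against the distance of the gene's midpoint from the start of Fcgr2b in kb (x axis), with red circles for Fc receptor genes and grey squares for neighbours. Fcgr4 (2.94) stands between Fcgr2b (-0.96) and Fcgr3 (-1.42), and most neighbours lie between the dashed lines at 1 and -1.

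Genes that work with the Fc receptors were read from 10 lists of 116 genes, of which 95 were tested. Of these, 23 were called up (24.2%, against 8.9% of all genes) and 5 were called down (5.26%, against 9.2%). With library size scaling only, 18 were called up and 8 down. The median log2 fold change was 0.32 over the 95 genes and -0.02 over all genes tested. Many of these genes are myeloid, and the part of the myeloid marker levels in these counts was not tested.

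**Figure D5:**
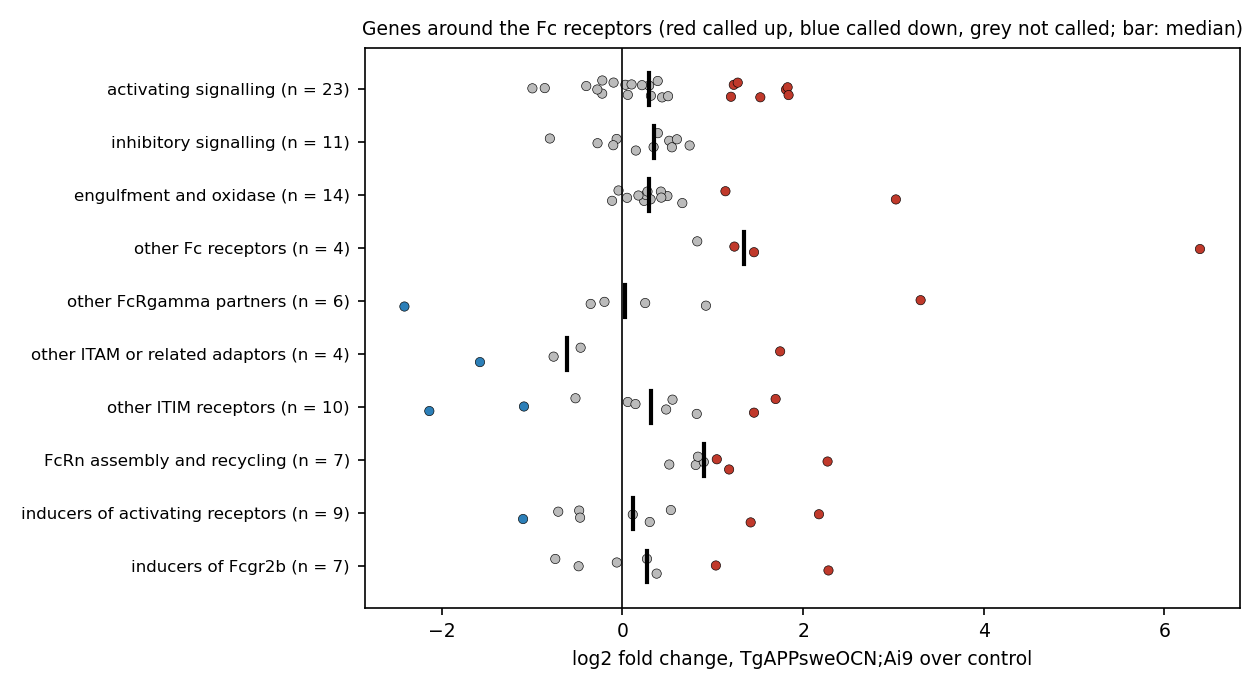
Log2 fold change of TgAPPsweOCN;Ai9 over control (x axis) of each tested gene in the 10 lists, with red for genes called up, blue for genes called down, grey for the others and a black bar for the list's median. The receptor Fcrl5 (6.39) lies farthest to the right.

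Among 23 tested genes of activating signalling below FcRγ, 7 were called up and none down, against 8.9% and 9.2% of all genes tested. By the adjusted p alone 13 were higher and 4 lower, against 32.5% and 31.5% of all genes. The list's median log2 fold change was 0.30. These are transcript levels, and signalling itself was not measured. Syk, the kinase recruited by the phosphorylated ITAM, had an FPKM of 68.5, 68.5 and 67.2 in the control libraries, against 159, 171 and 169 in the TgAPPsweOCN;Ai9 libraries. Its log2 fold change was 1.53 (standard error 0.0522, edgeR adjusted p = 1.40e-07). The adaptor gene Lcp2 (SLP-76) rose by 1.84, and the Src family kinase genes Fgr and Lyn rose by 1.83 and 1.23. Pik3cg (1.28) and Vav1 (1.2), which encode a PI3-kinase subunit and a guanine nucleotide exchange factor, were also called up, Vav1 not with library size scaling only (0.986). The 4 lower genes, Tec (-0.997), Vav3 (-0.86), Card9 (-0.40) and Sh3bp2 (-0.28), did not reach the fold change threshold. With library size scaling only, Tec (-1.21) and Vav3 (-1.07) passed it, and Tec also did so without control replicate 1 (-1.03), TgAPPsweOCN;Ai9 replicate 2 (-1.01) or TgAPPsweOCN;Ai9 replicate 3 (-1.001).

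Of 11 genes of inhibitory signalling tested, none was called in either direction, against 18.1% of all genes tested, and nothing particular to so short a list is read from this count. By the adjusted p from edgeR 6 were higher and 2 lower, against 32.5% and 31.5% of all genes. The list's median was 0.34. Inpp5d, which encodes SHIP1, the phosphatase used by FcγRIIB, had a log2 fold change of -0.06 (standard error 0.0611, edgeR adjusted p = 0.383). Its FPKM was 117 to 120 in control and 87.3 to 96.8 in the TgAPPsweOCN;Ai9 libraries, and its log2 fold change ranged from -0.35 to -0.01 over the alternatives, with adjusted p-values from 0.000553 to 0.855 (edgeR, DESeq2 or limma). Ptpn6, which encodes SHP-1, was higher at 0.52 (standard error 0.0634, edgeR adjusted p = 1.33e-04) but under the threshold.

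Among 14 genes of engulfment and the phagocyte oxidase, 2 were called up and none down, against 8.9% and 9.2% of all genes tested. By the adjusted p 10 were higher and none lower, against 32.5% and 31.5% of all genes, with a median of 0.29. Nothing particular to the list is read from so few calls. Rac2, the small GTPase of blood cells that serves both actin and the oxidase, rose by 3.03 (standard error 0.0881, edgeR adjusted p = 6.63e-08), from an FPKM of 110.3 to 133.8 in the control to 823 to 864 in the TgAPPsweOCN;Ai9 libraries. Cybb, the catalytic oxidase subunit, rose by 1.14 and varied between the TgAPPsweOCN;Ai9 libraries (FPKM of 353, 214 and 286). Its change was under the threshold without TgAPPsweOCN;Ai9 replicate 1 (0.94).

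Of 13 other Fc receptor genes only 4 were tested, and 3 of these were called up, against 8.9% of all genes tested. Fcrl5, an Fc receptor-like gene best known from B cells, had an FPKM of 0.72, 1.12 and 1.02 in the control libraries, against 46.1, 84.2 and 63.6 in the TgAPPsweOCN;Ai9 libraries. Its log2 fold change was 6.39 (standard error 0.256, edgeR adjusted p = 2.67e-07), the largest of all 95 genes in the lists. Fcrl1, likewise known from B cells, rose by 1.46 from an FPKM of 10.7 to 12.7 in control to 25.7 to 32.2 in TgAPPsweOCN;Ai9 libraries. The summed FPKM of 7 B cell marker genes was 2.06 to 3.16 and 4.07 to 4.73, and of the 2 markers tested Cd79b was called up (1.75) while Ebf1 was not called (-0.54, edgeR adjusted p = 0.154). Trim21, the cytosolic antibody receptor, rose by 1.24 (standard error 0.0556, edgeR adjusted p = 4.56e-07). Fcrls, an Fc receptor-like gene of macrophages and microglia, was abundant, at an FPKM of 773 to 1026 in control and 1298 to 1398 in the TgAPPsweOCN;Ai9 libraries, and passed the adjusted p but not the fold change threshold (0.83).

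Among 6 tested genes of other receptors that use FcRγ, 1 was called up and 1 down, against 8.9% and 9.2% of all genes tested. Nothing particular to so short a list is read from these counts. Clec4e (Mincle) was called up at 3.30 and Clec4n (Dectin-2) was called down at -2.41 (edgeR adjusted p = 2.80e-05 and 5.70e-07). Clec4e had an FPKM of 8.11 to 8.32 in control and 99.3, 39.5 and 69.5 in TgAPPsweOCN;Ai9 libraries, and Clec4n 138 to 145 and 19.1 to 25.5. Among 4 tested genes of other ITAM or related adaptors 1 was called up (Cd79b) and 1 down, Cd247 (-1.58), at an FPKM of at most 0.39. The adjusted p of Cd247 missed 0.05 in DESeq2 (0.0747) and in edgeR without control replicate 1 (0.0528) or TgAPPsweOCN;Ai9 replicate 3 (0.0635). Tyrobp, which encodes DAP12, the other main ITAM adaptor of myeloid cells, was lower in contrast to Fcer1g, with a log2 fold change of -0.46 (standard error 0.0765, edgeR adjusted p = 7.78e-04), under the threshold. Of 10 other ITIM receptor genes 2 were called up (Pilra 1.70 and Clec4a2 1.46) and 2 down (Cd300a -2.14 and Lilrb4a -1.09). The shares of all genes tested were 8.9% and 9.2%, and neither the adaptor nor the ITIM counts are read as particular to their lists.

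For FcRn, the 7 tested genes of assembly and recycling were higher by the adjusted p, while Fcgrt itself was lower. Of all genes tested 32.5% were higher and 31.5% lower in this way. In the list 3 genes were called up and none down, against 8.9% and 9.2% of all genes tested, with a median of 0.90. Ehd1, which encodes a protein of the recycling endosome, rose by 2.27 (standard error 0.0960, edgeR adjusted p = 3.42e-07). B2m rose by 1.18 (standard error 0.107, edgeR adjusted p = 2.32e-05), with an FPKM of 3135, 2394 and 2563 in the control libraries, against 5586, 5169 and 5039 in the TgAPPsweOCN;Ai9 libraries. The ER chaperone gene Canx rose by 1.04. With library size scaling only, B2m (0.96) and Canx (0.83) fell below the threshold, and Canx did so without control replicate 1 (0.99) or without TgAPPsweOCN;Ai9 replicate 1 (0.99).

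Among 9 tested genes known to raise the activating receptors, 2 were called up and 1 down, against 8.9% and 9.2% of all genes tested. By the adjusted p 4 were higher and 4 lower, against 32.5% and 31.5% of all genes, with a median of 0.11. Nothing particular to so short a list is read from these counts. Jak2, a kinase of cytokine receptors, rose by 1.42 (standard error 0.133, edgeR adjusted p = 2.73e-05), and Ifngr1, the ligand-binding chain of the interferon-γ receptor, fell by 1.1 on the log2 scale, which was under the threshold without control replicate 1 (-0.996). Ifng itself was listed at 0 in 5 of the 6 libraries and was not tested. Spi1 (PU.1) was higher at 0.54 and C5ar1, the receptor for the complement fragment C5a, lower at -0.71 (edgeR adjusted p = 9.37e-05 and 7.51e-04), both under the threshold.

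Of 7 tested genes known to raise Fcgr2b, 2 were called up and none down, with a median of 0.27. The shares of all genes tested were 8.9% and 9.2%, and nothing particular to so short a list is read from this count. Il10 rose by 2.28 (standard error 0.119, edgeR adjusted p = 1.01e-06), with an FPKM of 7.83, 8.65 and 8.90 in control and 32.0, 42.4 and 32.1 in the TgAPPsweOCN;Ai9 libraries, while the receptor genes Il10ra (-0.49) and Il10rb (-0.74) were lower by the adjusted p and under the threshold. Il4ra rose by 1.03, a call that was lost without control replicate 2 (0.97), without TgAPPsweOCN;Ai9 replicate 2 (0.93) and with library size scaling only (0.82). Il4 and Il13 were not tested.

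The genes most like each Fc receptor gene across the 6 libraries were found by the root mean square distance between centred log2 CPM values, which describes a shared pattern and nothing about function. For Fcgr4 they were H2-T22 (distance 0.116) and Sema4c (0.133), and for Fcgr1 Septin9 (0.0689) and Nlrc5 (0.0725). For Fcer1g they were Slirp (0.0444) and Tdrd7 (0.0591). For Fcgr3 they were Man2b1 (0.0228) and Hsd17b11 (0.0352), for Fcgr2b Zfp777 (0.0352) and Mapk1ip1 (0.0496), and for Fcgrt Fgfrl1 (0.0189) and Tchp (0.0289). None of these 12 genes was itself an Fc receptor gene.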

How the data were processed

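RNA was taken from sorted tdTomato+ OB progenitors and sequenced on a DNBSEQ platform by a sequencing service. Reads of rRNA, adaptors or low quality were discarded before mapping with HISAT2. The submitters' processing notes name HISAT2 2.0.4, Bowtie2 2.2.5, RSEM 1.2.12, DESeq2 1.4.5 and build mm10. The authors deposited estimated counts for 17469 genes, 13.3% to 14.4% of them fractional per library, and FPKM values (scaled by transcript length and library total). A further deposited table repeats the FPKM and adds the authors' own log ratios and p-values, which were not used here. The members and gene lists were chosen with earlier results of these data known.

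Estimated counts were rounded and tested by edgeR 4.0.16 under R 4.3.3 (quasi-likelihood test after filterByExpr and TMM, no replicate block) with Benjamini-Hochberg adjustment over 12701 genes, with calls at an adjusted p of at most 0.05 and a difference of 1 or more on the log2 scale. Ratios were compared with a two-sided exact permutation test over the 6 libraries. The floor of 3 counts was 0.136 to 0.155 CPM and covers counting error only. Log2 CPM used a prior count of 2.

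Alternatives were DESeq2 1.42.0, RLE size factors, library size only, keeping every gene with 1 count in any library, at least 10 counts in every library, a replicate block, limma 3.58.1 on log2(FPKM + 1) and log2(FPKM + 0.1), the adjusted p alone, other forms of the ratio and leaving out each library. Fcgr2b and Fcgr3 summed as 1 gene and the 3 further ratios were added after the data were seen.

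Named genes are the 6 Fc receptor genes, up to 3 called genes per list and direction with the largest change and at least 10 counts in every library, the genes Syk, Lyn, Inpp5d, Ptpn6, Tyrobp, B2m, Spi1, Il10, C5ar1 and Trim21, the neighbours on chromosome 1, the 2 genes most like each member, and App. Outside this rule, Pik3cg, Vav1, Tec, Vav3, Card9, Sh3bp2, Cd247, Fcrls, Il10ra, Il10rb, Ifng, Il4, Il13 and the marker genes were named after their values were seen. Some items that meet these criteria are not reported here. RefSeq GRCm38.p6 promoter windows were available for all 6 genes. Tables and plots used Python 3.11.15 with pandas 2.3.3, numpy 2.4.6, scipy 1.17.1 and matplotlib 3.10.9.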

Additional observations from a re-analysis of the deposited data

How the results depend on the processing

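All 86 values of the 6 Fc receptor genes under the alternatives kept their direction, and so did those of the 8 ratios of the report without each library and under the replicate block, and those of the named pathway genes. Among neighbours, Tomm40l (0.14) turned to -0.070 with library size only and to -0.052 and -0.056 in limma with a pseudocount of 1 and 0.1, and Cfap126 (-0.15) ranged from -0.84 to 0.13 without each library, above 0 without control replicate 1 or TgAPPsweOCN;Ai9 replicate 1 or 3. Up-regulated Fc receptor genes numbered 3, or 2 under library size scaling and both limma fits. Down-regulated ones numbered 1 in edgeR, 3 with library size only, limma on log2(FPKM + 1), limma on log2(FPKM + 0.1) and the adjusted p alone, and 1 to 2 when each library was left out. For Fcgr2b the log2 fold change was -1.18 with library size only, -1.18 and -1.19 in the limma fits with a pseudocount of 1 and 0.1, -1.28 when summed with Fcgr3, and -1.05 to -0.88 over the fits without each library. App went from 0.45 to 0.24 with library size only and in both limma fits. For Fcer1g the log2 fold change was 0.90 in each of these 3 fits (library size, limma with 1, limma with 0.1), and for Fcgrt -1.07, -1.05 and -1.07. These 3 fits do not apply TMM factors and their median over all genes was -0.23, -0.16 and -0.22. Down-regulated genes of the pathway lists went from 5 to 8 with library size only, and up-regulated ones from 23 to 18, 16 and 17 in these 3 fits. Over all genes tested, library size only gave 846 up and 1732 down against 1130 and 1169, limma on log2(FPKM + 1) gave 593 up and 845 down, limma on log2(FPKM + 0.1) 811 up and 1510 down, and the adjusted p alone 4122 higher and 4007 lower.

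Tec passed the threshold with library size only and in limma with a pseudocount of 1 and 0.1 (-1.21, -1.15 and -1.22) and under the filter of 10 counts per library (-1.01), and Vav3 with library size only (-1.07) and limma on log2(FPKM + 0.1) (-1.11). The call of Vav1 was lost in these 3 fits, that of Cd247 in DESeq2 and both limma fits, that of Lyn in both limma fits, that of Trim21 in limma on log2(FPKM + 1), and those of Cybb, B2m, Canx and Il4ra in both limma fits and with library size only. The log2 ratio of activating genes to Fcgr2b was 1.91 with the geometric mean, 1.21 on counts and 1.04 with FPKM plus 1, and 0.99 to 1.11 without each library, where the smallest possible exact two-sided permutation p is 0.2. With Fcgr1 and Fcgr4 set against Fcgr2b and Fcgr3, chosen after seeing the data, it was 3.27.

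The deviations of same-numbered libraries from their group means correlated over genes with r = 0.0127, 0.00664 and 0.141, the last for replicate 3. Correlations over all genes cannot decide whether same-numbered libraries shared a batch, so pairing is left undecided. The main fit took the libraries as unpaired. The replicate block gave 1115 genes up and 1147 down, changed no call of an Fc receptor gene, and left the activating to inhibitory ratio at 1.06 (exact permutation p = 0.25, the smallest for 3 pairs). Depth did not limit the Fc receptor genes, whose lowest estimated count was 595. Of the 13 other Fc receptor genes, 9 had too few counts to be tested or were not in the table.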
